A study of Macaca mulatta with 6 samples.

Results

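Solitary CpGs are CpG sites, where a guanine follows a cytosine, that stand far from any other CpG. Here they are the autosomal positions of the deposited bisulfite sequencing table whose previous and next listed CpG were each more than 500 and less than 100000 bases away. Only the chromosome, start and end columns were used to choose them. Of 25805743 listed autosomal CpGs, 64181 met this rule, or 0.249%, which is 1 in 402. They averaged 23.7 per Mb of chromosome span, or 1 per 42.2 kb.

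The study measured DNA methylation in peripheral blood mononuclear cells (circulating lymphocytes and monocytes) of 6 rhesus macaques, all adult females. By the labels 3 of them formed the high ranking group (rank 1) and the other 3 the low ranking group (rank 5), with no treatment named. The values in the table carry no names that tie them to an animal, so no methylation level, depth or rank comparison is given. All results below describe positions, which are listed once for the 6 animals together and give no replicate error, and no test was made on them. Whether each position was covered in every animal is not known here.

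In vertebrate DNA the cytosine of a CpG is the usual site of methylation. A methylated cytosine that loses its amino group becomes thymine, and over evolution this has removed CpGs from most of the genome, while CpG islands, which are mostly unmethylated in the germ line, have kept theirs. A CpG left alone in a CpG-poor stretch is typically methylated in normal cells. In tissues with a long history of cell division, isolated CpGs in late-replicating DNA are known for a gradual loss of methylation. In short-read bisulfite data such a site also rarely shares a read with another CpG, so that its methylation call cannot be backed by a neighbour's.

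Solitary CpGs were distributed very unevenly between chromosomes. Chromosome 5 had the highest share, 6490 sites or 0.474% of its listed CpGs, followed by chromosomes 12 and 6 at 0.359% and 0.358%. Chromosome 19 had the lowest, 271 sites or 0.0289%, followed by chromosome 16 at 0.0635% and chromosome 20 at 0.0701%. The share thus differed 16.4-fold between chromosomes 5 and 19, where the density of listed CpGs differed 1.94-fold, at 7.52 and 14.6 per kb. Per Mb of span the range was 8.47-fold, from 4.21 sites on chromosome 19 to 35.6 on chromosome 5. The span, here and in the densities, includes intervals of at least 100 kb without a listed CpG. Leaving these out gave 4.87 sites per Mb on chromosome 19 and 35.7 on chromosome 5. Listed CpGs per kb were not recomputed without them, so the 1.94-fold applies to the whole span only. Without chromosome 19 the range of shares was 7.47-fold.

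Chromosomes 10, 16, 19 and 20 stood apart from the rest. Together they held 16.4% of the listed autosomal CpGs and 2572 solitary CpGs, or 4.01% of them. Each had a share of at most 0.0751%, and the lowest share among the other 16 autosomes was 0.202%, on chromosome 9. Across the 20 autosomes the share fell with CpG density, with a Pearson r of -0.92 and a Spearman rho of -0.91. Without chromosomes 16 and 19, the pair farthest from the median density, r was -0.93 and rho was -0.88. These are descriptions of chromosomes of 1 genome, and both axes are computed from the same listed CpGs. By density over the whole span, chromosome 20 lay below its neighbours, with 0.0701% at 11.1 CpGs per kb, where chromosome 10 had 0.0751% at 12.9. These densities count the whole span, including intervals of at least 100 kb without a listed CpG. Leaving such intervals out raised the solitary CpGs per Mb from 7.776 to 9.215 on chromosome 20 and from 9.71 to 9.91 on chromosome 10. They thus took up more of the span of chromosome 20. Density without them was not computed, but the median spacing between listed CpGs was 32 bases on both chromosomes. Spacings over 500 bases made up 1.39% of the spacings on each. Whether chromosome 20 lies below chromosomes of like density without such intervals was not tested.

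**Figure D1:**
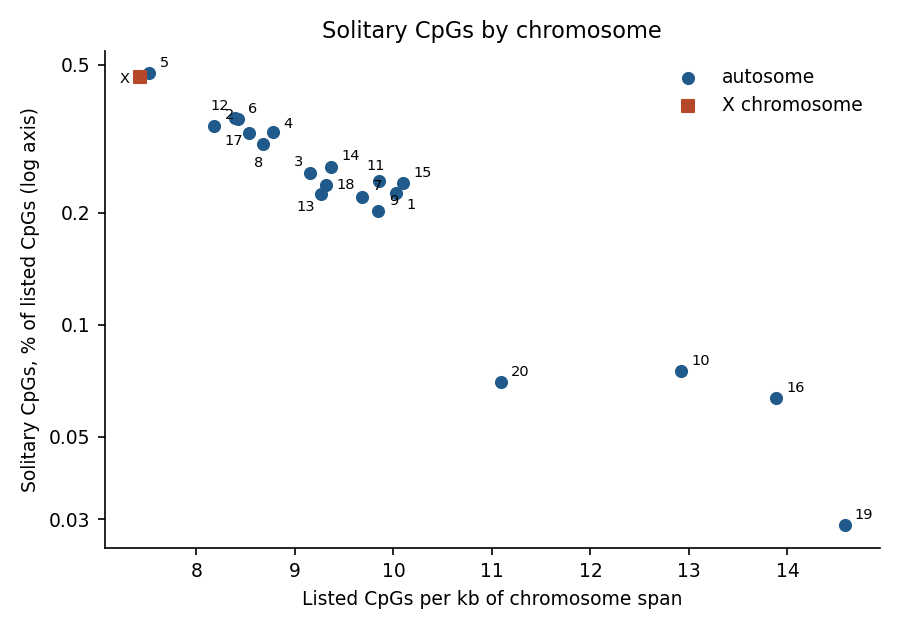
Share of listed CpGs that are solitary (percent, log axis) against listed CpGs per kb of chromosome span, 1 point per chromosome, labelled by its number. Chromosome 5 (0.474%) and the X chromosome (0.463%) lie at the upper left, and chromosomes 10, 16, 19 and 20 lie apart at the lower right, from 0.0289% to 0.0751%.

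The X chromosome, left out by the rule, resembled chromosome 5. By the same limits it had 5293 solitary CpGs, or 0.463% of its 1143203 listed CpGs, 1.86 times the autosomal share, and only chromosome 5 of the 20 autosomes had a higher one. Its density of listed CpGs was 7.43 per kb. The median flank, meaning the distance to the previous or next listed CpG, was 673 bases on the X chromosome and 668 on the autosomes.

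Within chromosomes, solitary CpGs were gathered in CpG-poor megabases. Among 2686 autosomal 1 Mb windows with a listed CpG, the median held 20 solitary CpGs and the middle 50% held 8 to 36.8, while 78 windows, 2.90%, held none. The tenth of the windows richest in them, 269 windows with at least 52 each, held 25.1% of all solitary CpGs and 5.98% of the listed CpGs. Chromosome 5 contributed 36 of these windows, and chromosomes 16, 19 and 20 contributed 0. Neighbouring windows were alike, with a Spearman rho of 0.731 between windows 1 Mb apart over 2658 pairs, 0.458 at 5 Mb and 0.336 at 10 Mb. Windows of a pair share their chromosome.

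The richest window lay on chromosome 5, from base 65000001 to 66000000, where 91 of 5677 listed CpGs were solitary, or 1.60%. The next was also on chromosome 5, from base 126000001 to 127000000, with 84 of 5161. Windows on chromosome 12 (56000001 to 57000000), chromosome 15 (33000001 to 34000000) and chromosome 8 (115000001 to 116000000) followed with 80, 79 and 78. All 5 had between 5.16 and 5.68 listed CpGs per kb, well below the autosomal 9.52. At the other extreme, the first Mb of chromosome 19 listed 32963 CpGs and none was solitary. The other windows with the most listed CpGs among those without a solitary one were the second Mb of chromosomes 15, 19 and 20 and bases 4000001 to 5000000 of chromosome 1, with 30740 to 31941 each. Coordinates are 1-based and follow the table. Its genome build is not known here, so positions were not assigned to genes.

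When windows were grouped by their own CpG density, the share of solitary CpGs fell steeply. Density and share are computed from the same listed CpGs, and the rule asks for wide spacing, so a fall is partly built in. Windows with 5 to 6 listed CpGs per kb had 0.960% solitary CpGs, those with 7 to 8 had 0.389%, those with 10 to 12 had 0.103%, and those with 15 or more had 0.0144%. Windows under 7 per kb made up 30.8% of the windows and held 56.8% of the solitary CpGs, while windows of at least 12 per kb made up 22.04% and held 4.72%. Windows under 5 per kb had 0.657%, less than the class above them. Of these 45 windows, 36 touch an interval of at least 100 kb without a listed CpG or hold a chromosome's last listed CpG.

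Among autosomes with at least 5 windows in a class, the highest share was 1.37 to 2.22 times the lowest in each of the 6 classes from 5 to 15 per kb. These ranges cover fewer chromosomes than the whole-chromosome ones above, since chromosomes 16, 19 and 20 had that many windows in only 3, 1 and 4 of the 6 classes. At 6 to 7 per kb, for example, it ran from 0.428% on chromosome 20 to 0.704% on chromosome 4. Chromosome 20 was lowest in 4 of these 6 classes. Chromosome 19, on fewer windows, had 0.135% at 6 to 7 per kb (3 windows) and 0.119% at 8 to 10 (4 windows), below the 0.616% and 0.210% of all autosomes. At 10 to 12 per kb (4 windows) and 12 to 15 (9 windows) it had 0.141% and 0.0633%, above the 0.103% and 0.0532% of all autosomes. Its windows of 6 to 7 per kb held 8.33 solitary CpGs each and those of 10 to 12 held 15.75, against 39.9 and 11.31 over all autosomes. Density is counted over the full Mb, also where part of a window has no listed CpG. Windows partly in long CpG-free intervals were not set aside, on chromosomes 19 and 20 or elsewhere. In windows of 15 or more per kb the range was wider, 5.51-fold, from 0.00663% on chromosome 19 to 0.0365% on chromosome 6. Chromosome 5 was near all autosomes together in this grouping, with 1.00% at 5 to 6 per kb and 0.390% at 7 to 8. The X chromosome had 0.995% and 0.313% in these classes.

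**Figure D2:**
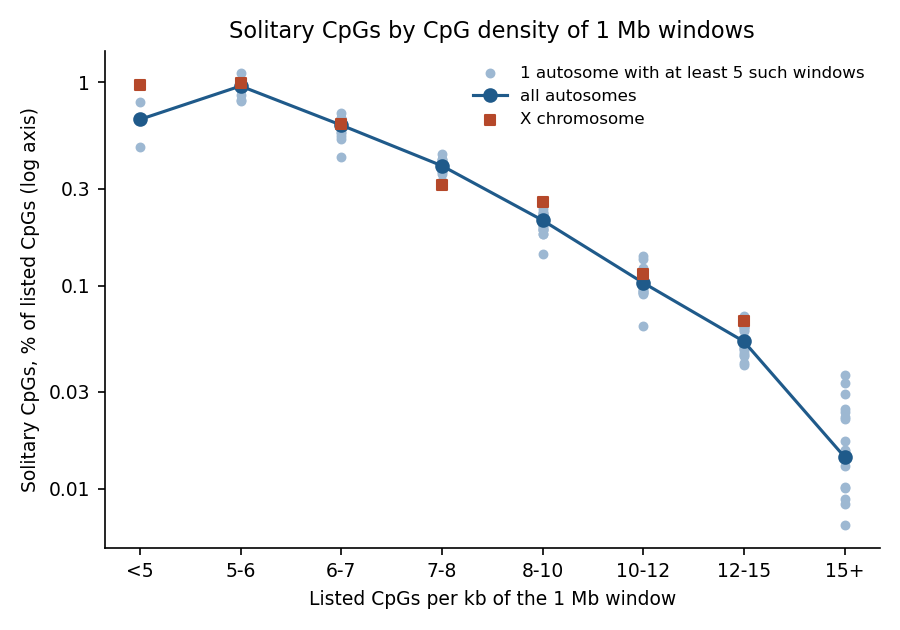
Share of listed CpGs that are solitary (percent, log axis) in 1 Mb windows grouped by their listed CpGs per kb, for all autosomes together (line), single autosomes with at least 5 windows in the class (pale points) and the X chromosome (squares). The line falls from 0.960% at 5 to 6 per kb to 0.0144% at 15 or more.

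Solitary CpGs were scarce near chromosome ends, meaning near the first and last listed CpG. Within 1 Mb of an end there were 193, or 4.83 per Mb and 0.0264% of the listed CpGs, against 24.0 per Mb and 0.255% elsewhere. Within 10 Mb the share was 0.0639%, against 0.302% elsewhere. The share was lower at the ends on 20 of 20 autosomes for both distances. CpG density was also higher there, at 18.3 per kb within 1 Mb of an end and 9.39 elsewhere. In windows grouped by density the share was lower at the ends in 7 of 8 classes, and the size of the difference varied. Density was counted over the full Mb also in each chromosome's last window, which is cut short at its last listed CpG. A CpG-dense last window can thus be classed with sparser windows, and this is not limited to the lowest class. Such windows were not set aside, so whether the share is lower at the ends at equal density was not tested. Under 5 per kb the share was 0.0780% in 11 windows within 10 Mb of an end and 0.766% in 34 others. Of these 45 windows, 36 touch an interval of at least 100 kb without a listed CpG or hold a chromosome's last one. Their low counts therefore need not mean sparse CpGs, and they were not set aside. At 5 to 6 per kb the share was 0.564% in 5 windows and 0.966% in 311. At 8 to 10 per kb the share was 0.146% in 46 windows and 0.216% in 480, and at 12 to 15 per kb it was 0.0557% in 84 windows and 0.0523% in 244.

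The thinning of CpGs around solitary sites reached far beyond the 500 bases set by the rule. Between 0.5 and 1 kb from them there was a mean of 5.48 listed CpGs per kb, between 5 and 10 kb there were 6.86, and between 50 and 100 kb there were still only 7.14. Around positions taken every 1 kb along the autosomes, an even grid, the density was 9.52 per kb at each distance, so that the surroundings of solitary CpGs had 0.576 times the grid's density at 0.5 to 1 kb and 0.751 times at 50 to 100 kb. Around all listed CpGs the density at 50 to 100 kb was 11.6 per kb. At that distance solitary CpGs were below the grid on 20 of 20 autosomes. The most similar set, the 1406631 CpGs with exactly 1 flank over 500 bases, lay in between, with 8.24 per kb at 50 to 100 kb.

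**Figure D3:**
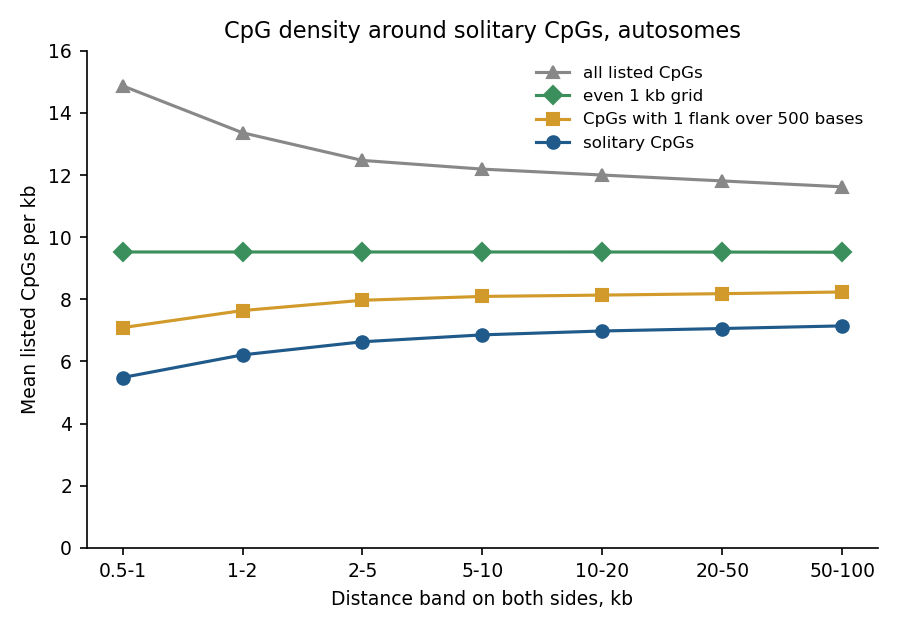
Mean listed CpGs per kb in bands of distance on both sides of solitary CpGs, of CpGs with 1 flank over 500 bases, of all listed CpGs and of an even 1 kb grid, autosomes. Solitary CpGs have the lowest density in every band, 5.48 per kb in the nearest and 7.14 in the farthest.

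From 500 bases to 10 kb on both sides, a solitary CpG had a median of 116 listed CpGs, with 77 to 212 from the 5th to the 95th percentile. The median was 151 around the grid and 202 around all listed CpGs. By chromosome the median around solitary CpGs ran from 110 on chromosome 5 to 161 on chromosome 19, below the grid on 20 of 20 autosomes. On chromosome 19 the 161 compares with 275 around the grid and 371 around all listed CpGs of that chromosome, and is above the 151 of the grid over all autosomes. Single sites ranged from 11 to 692.

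Solitary CpGs lay far from dense CpG runs, stretches of at least 40 CpGs with steps of at most 50 bases, which resemble CpG islands in spacing. The autosomes held 19251 such runs. The median distance to the nearest was 216 kb from a solitary CpG, 98.4 kb from a grid position and 51.7 kb from a listed CpG. More than 100 kb separated 68.8% of solitary CpGs from the nearest run, against 49.6% of grid positions, 35.8% of all listed CpGs and 58.8% of CpGs with 1 long flank. Grid positions in long intervals without a listed CpG are counted here too. The share of solitary CpGs beyond 100 kb was above that of the grid on 20 of 20 autosomes and ran from 44.3% on chromosome 19 to 77.9% on chromosome 17. It depended on what counts as a run: with runs of at least 20 CpGs it was 8.76%, against 4.02% of all listed CpGs.

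A few solitary CpGs stood beside a run. Within 2 kb there were 166, or 0.259%. The rule keeps members out of runs and more than 500 bases from them, so other positions are compared here only beyond that distance. Of these, 3.41% of listed CpGs, 1.82% of grid positions and 0.866% of CpGs with 1 long flank were within 2 kb of a run. The same restriction put 38.8% of listed CpGs, 50.3% of grid positions and 58.9% of CpGs with 1 long flank over 100 kb from a run. The nearest, on chromosome 3 at base 8512405, was 504 bases from a run of 40 CpGs in 590 bases (8511312 to 8511901), just past the smallest distance the rule allows. The next, on chromosome 3 at base 121560541 and chromosome 11 at base 41264110, were 530 and 555 bases from runs that also held 40 CpGs. These 3 sites were chosen after their values had been seen.

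**Figure D4:**
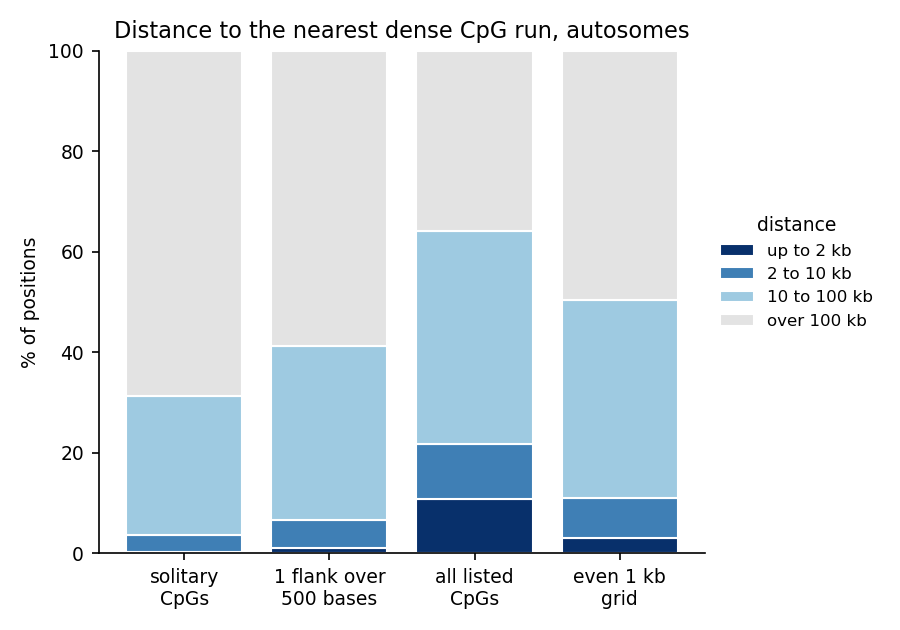
Share of positions (percent) by distance to the nearest dense CpG run for solitary CpGs, CpGs with 1 flank over 500 bases, all listed CpGs and an even 1 kb grid, autosomes. The part beyond 100 kb is 68.8% for solitary CpGs and 35.8% for all listed CpGs.

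Most solitary CpGs passed the limit of 500 bases narrowly. The shorter of the 2 flanks had a median of 584 bases and a 95th percentile of 876, and the longer had a median of 799 and a 95th percentile of 1536. Both flanks exceeded 600 bases at 28051 sites (43.7%), 750 at 8387 (13.1%), 1000 at 1290 (2.01%) and 1500 at 51 (0.0795%). At the limit itself the counts ran on without a step, with 561 CpGs whose shorter flank was 500 bases, which are not members, and 580 at 501 bases, which are. A site on chromosome 14 at base 71586738 had 500 bases on each side and was left out, and a site on chromosome 1 at base 193396706 had 501 on each side and was kept.

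The most isolated CpG was on chromosome 5 at base 83999772, with 7282 bases before it and 3722 after it. It was the only member with more than 3000 bases on each side, and it lay alone in a stretch of 11004 bases. Chromosome 3 at base 83322493 followed with flanks of 2676 and 3421 bases. Next came chromosome 5 at base 141273065, with 3278 and 2249, chromosome 1 at base 72585387, with 2108 and 2292, and chromosome 2 at base 38375658, with 2451 and 2067. In all, 6 members had more than 2000 bases on each side.

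The flanks before and after a site were alike as sets and nearly unrelated site by site. The median was 669 bases upstream and 667 downstream, and the upstream flank was the longer at 32168 sites, the downstream flank at 31897, with 116 ties. Spearman's rho between the 2 flanks was 0.016 over the 64181 sites. Their lengths fell off smoothly, from 12181 upstream flanks between 501 and 550 bases to 43 in the 50 bases up to 2000. Among the 300 lengths from 501 to 800 bases, no count was more than 1.22 times the median of the 8 lengths on either side. The same flank pair, upstream and downstream, was shared by at most 5 sites. This count was reached by 17 pairs, the shortest being 505 and 506 bases, on 4 chromosomes.

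**Figure D5:**
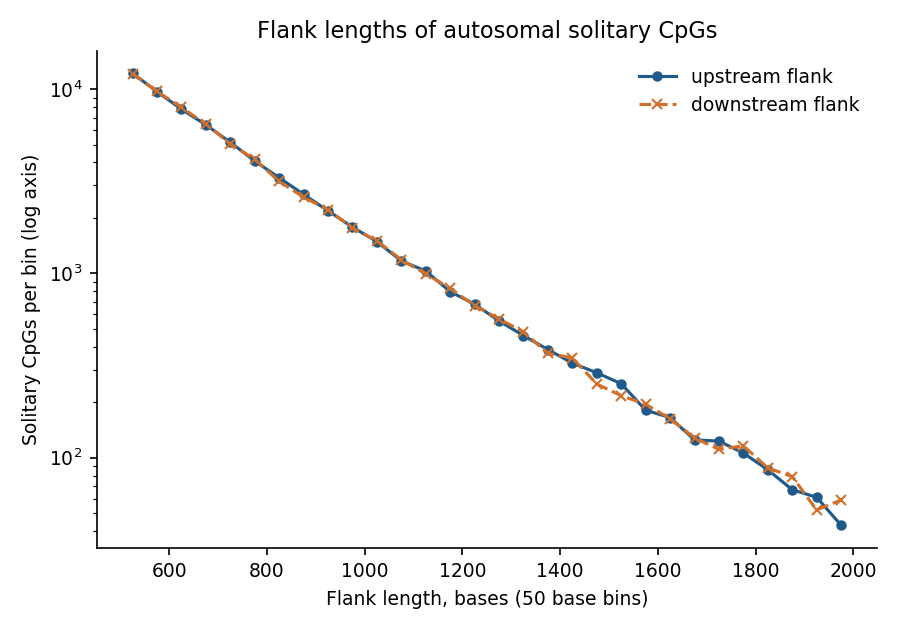
Number of autosomal solitary CpGs per 50 base bin of flank length (log axis), for upstream and downstream flanks up to 2000 bases. The 2 curves overlie each other and fall from 12181 and 12122 sites in the first bin to 43 and 59 in the last.

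A small set of members had 1 very long flank. At 102 sites a flank was at least 10000 bases and at 11 it was at least 50000. The largest was on chromosome 9 at base 94593487, with 569 bases before it and 96792 after it, followed by chromosome 2 at base 2674914, with 565 and 81641, and chromosome 15 at base 106257190, with 930 and 77947. Chromosome 7 at base 146618165 and chromosome 4 at base 26719844 had longest flanks of 74902 and 72170 bases. Whether the bases of such stretches are known in the assembly was not tested. The upper limit left out 7 autosomal CpGs, on 6 chromosomes, with a flank of at least 100000 bases, and 297 members lay within 100 kb of an interval of that size.

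Long spacings followed each other more often than their overall frequency. Spacings over 500 bases made up 2.97% of all autosomal spacings, but of the 767361 CpGs with such a spacing upstream, 8.36% also had one downstream and so were solitary, 2.81 times the overall share. The ratio was above 1 on 20 of 20 autosomes, from 1.98 on chromosome 5 to 4.17 on chromosome 19. Solitary CpGs bordered 15.8% of all autosomal spacings over 500 bases. These bordering spacings had a median of 667 bases, and the others 654. Spacings over 2000 bases made up 0.920% of those next to a solitary CpG and 1.95% of the others.

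Solitary CpGs also formed strings, in which the next listed CpG was itself solitary. This held for 6845 of them, or 10.7%. The rule already fixes the first flank of that next CpG, so the figure to set beside it is the 8.36% of CpGs that are solitary once their upstream spacing exceeds 500 bases. In all, 12885 solitary CpGs, 20.1%, stood in strings, made up of 5306 pairs, 669 strings of 3, 59 of 4 and 6 of 5. Among the strings of 5, the longest in bases lay on chromosome 2 from base 29824189 to 29829051, inside a stretch of 6632 bases bounded by the next listed CpGs. Others of 5 lay on chromosome 2 (57449137 to 57453753), chromosome 13 (132474121 to 132477479), chromosome 6 (42567063 to 42570347) and chromosome 4 (46396648 to 46399615). Together the stretches around solitary CpGs covered 94.96 Mb, or 3.50% of the autosomal span, for 0.249% of the listed CpGs.

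Successive solitary CpGs were a median of 17.3 kb apart and a mean of 41.9 kb, and 36.1% were within 10 kb of the next. The longest distance without one was 10.9 Mb, on chromosome 20 from base 33618582 to 44510823, of which 10.2 Mb is a single interval with no listed CpG. The remaining part held 933 listed CpGs.

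CpGs just beyond the flanks of a solitary CpG were also spaced more widely than CpGs in general. The spacing on the far side of its neighbour had a median of 135 bases, against 115 beside any spacing over 500 bases and 41 over all autosomal spacings. Of these far spacings 24.8% were at most 50 bases, against 55.3% of all spacings, and 10.7% were again over 500.

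Solitary CpGs differ from CpGs that merely lie in sparse 1 kb windows. Windows with 1 to 4 listed CpGs, counted on a fixed 1 kb grid, held 1829954 autosomal CpGs, of which 3.21% were solitary. In turn they held 91.4% of the solitary CpGs. Windows with a single listed CpG numbered 72062, and in 37.9% of them that CpG was solitary, while in the others a CpG of an adjoining window lay within 500 bases or, rarely, a flank reached the upper limit. Of the solitary CpGs 42.5% were alone in their window and 1.10%, or 705, shared it with enough CpGs to make 10 or more. In 65 cases the window held 20 or more, up to 28, so that a CpG-free stretch of over 500 bases gave way to a cluster inside the same kb.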

How the data were processed

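DNA of 6 animals was sequenced after bisulfite conversion. Bismark, a bisulfite aligner and methylation caller, is named in the submitters' processing notes without a version. The sources used here name neither a genome build nor a rule for which sites were listed, so a CpG may look solitary because its neighbours are not listed. The authors deposited 1 headerless table. Its chromosome, start and end columns were read at any white space, giving 26958235 lines, and the end was used as the 1-based position. The other 12 columns carry no names and were not used, so depth per sample is not reported.

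Members, dense runs, windows, distance bands and strings were computed with Python 3.11.15, numpy 2.4.6, pandas 2.3.3 and scipy 1.17.1. Plots used matplotlib 3.10.9. All 6 quantities tested on simulated positions were recovered. The members, the limits and the lists of positions were chosen with earlier results of these data known. Positions were named by rule: the 5 with the longest shorter flank, the 5 with the largest sum of flanks, the 5 longest strings, the 5 richest and 5 poorest windows with at least 1000 listed CpGs (ties by number of listed CpGs), the most frequent flank pairs, and sites at the limit. No test was made, since a full count of positions has no replicates. Gene lists and sequence context were not analysed here, for want of a genome in the table's coordinates. Alternatives changed the flank limits, windows, distance bands, run definition, chromosome set and matching of flank pairs.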

Additional observations from a re-analysis of the deposited data

How the results depend on the processing

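The number of solitary CpGs, 64181, depends above all on the flank limit. Both flanks over 250 bases gave 632490 sites (2.45% of listed CpGs), and both over 1000 gave 1290 (0.0050%). An upper limit of 10000 bases gave 64079, and none gave 64188. The same rule on the X chromosome gave 0.463%. The range of shares across autosomes was 16.4-fold, 8.47-fold per Mb of span, 10.3-fold with flanks over 250 bases, 27.1-fold with flanks over 1000 (where chromosome 19 had 3 sites) and 7.47-fold without chromosome 19. The median number of CpGs around a site was 16 within 2 kb and 626 within 50 kb, which is 0.696 and 0.773 times the grid's, against 0.768 times within 10 kb. The part over 100 kb from a run was 8.76% with runs of at least 20 CpGs and 59.5% with steps of up to 100 bases, 2.18 and 2.21 times that of all listed CpGs, against 1.92 times. The share followed by another solitary CpG was 26.8% with flanks over 250 bases and 2.64% with flanks over 1000, each above the share of solitary CpGs after a long spacing (22.9% and 1.23%). The richest 10% of windows held 33.1% of the sites in 100 kb windows and 22.2% in 5 Mb windows. Sites sharing a flank pair with another made up 21.3%, 35.2% with reversed pairs and 68.5% with lengths allowed to differ by 1 base. The alternative for sequence context was not run, since no genome in the table's coordinates was used here. No animal enters these counts, so replicates could not be left out. The cause of the changes was not tested.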
